A study of Mus musculus with 27 samples.

Results

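The proteoglycan core proteins described here are encoded by 9 genes, which were chosen by name from the 55414 genes of the count table through their Ensembl identifiers. They are the small leucine-rich proteoglycans decorin (Dcn), lumican (Lum), biglycan (Bgn), fibromodulin (Fmod) and osteoglycin (Ogn), the large chondroitin sulfate proteoglycan versican (Vcan), the basement membrane proteoglycan perlecan (Hspg2), and the cell-surface proteoglycans syndecan-1 (Sdc1) and syndecan-4 (Sdc4). All 9 reached a mean of 10 counts per library, the minimum for a test. Vcan did so only through mice given CCl4, since it had at most 4 counts in any other mouse. Its calls for CCl4 are therefore not independent of this minimum. RNA from whole liver homogenate of 27 female Balb/c mice, 8 weeks old, was sequenced in 8 groups. Of the groups given olive oil intraperitoneally for 2 weeks, control had 4 mice and also received PBS into the tail vein, 4MU had 3, siLuc-LNP had 3 and siHAS2-LNP had 3. Of the groups given CCl4, a hepatotoxin that is used to induce liver fibrosis, intraperitoneally for 2 weeks, the CCl4 group itself had 2 mice, and there were 4 mice each for CCl4 with 4MU (CCl4 + 4MU), with control siRNA (CCl4 + siLuc-LNP) or with Has2 siRNA (CCl4 + siHAS2-LNP). 4MU (4-methylumbelliferone), an inhibitor of hyaluronan synthesis, was given daily by gavage at 600 mg/kg from before the first CCl4 dose. siHAS2-LNP and siLuc-LNP are lipid nanoparticles carrying siRNA against Has2, which encodes hyaluronan synthase 2, or against luciferase, a sequence that mice lack and so a non-targeting control. Both were injected into the tail vein, first at 1 mg/kg and later at 0.5 mg/kg. Each library was made from 1 mouse, so p-values measure the spread between mice, and no batch is named in the labels.

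Total counts were 7044386 to 29425937 per library. Transcripts of albumin (Alb), made by hepatocytes, were at 58023 to 172541 CPM (counts scaled to the library total), an abundant transcript in every library. The targeted gene, Has2, had 0 counts in 25 libraries and at most 2 in any, so its knockdown could not be read from these counts. Among the CCl4 + 4MU mice, mouse 4 stood apart, with a summed level of smooth muscle markers of 57.8 CPM and of squamous and gut epithelium markers of 40.4 CPM. Without it the mean effect of CCl4 described below still passed the test for 7 of the 9 core proteins.

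A proteoglycan is a core protein that carries long sulfated sugar chains, which are chondroitin sulfate, dermatan sulfate, heparan sulfate or keratan sulfate. Decorin, biglycan, lumican and fibromodulin bind collagen fibrils and help to set their width and spacing, versican binds hyaluronan and swells the provisional matrix of wounds, perlecan holds basement membranes together, and the syndecans span the cell membrane and present growth factors to their receptors. In liver, stellate cells and fibroblasts are known sources of the matrix members, whereas hepatocytes carry syndecans on their surface.

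The genes lie on 7 chromosomes, and Dcn and Lum are neighbours. In GRCm39, Dcn (ENSMUSG00000019929) was annotated at chr10:97315275-97358155 and Lum (ENSMUSG00000036446) at chr10:97400990-97408577, both on the plus strand with 42834 bases between them. Bgn (ENSMUSG00000031375) lies at chrX:72527208-72539541 and Hspg2 (ENSMUSG00000028763) at chr4:137196079-137298231, both on the plus strand. Ogn exons overlap those of Cenpp and Sdc1 exons those of the lncRNA Gm4755, each on the opposite strand, with at most 92 and 28 counts in any library. Since the strand setting of the counting was not stated, the low Ogn values may hold reads of Cenpp.

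Promoter sequence of 7 of the 9 genes was held in the RefSeq table of GRCm38.p6. Dcn and Lum had no entry. The 120 bases before the annotated start are shown for Bgn and Hspg2, because these genes rose and fell together from mouse to mouse, and for Fmod and Sdc4, which moved in opposite directions with CCl4. Each runs 5' to 3' on the strand of its gene, and capitals mark GGGCGG, the core of a GC box, or its reverse complement CCGCCC.
Bgn (chrX:73483481-73483600, plus strand): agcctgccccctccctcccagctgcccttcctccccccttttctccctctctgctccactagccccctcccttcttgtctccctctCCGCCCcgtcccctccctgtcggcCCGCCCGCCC
Hspg2 (chr4:137468683-137468802, plus strand): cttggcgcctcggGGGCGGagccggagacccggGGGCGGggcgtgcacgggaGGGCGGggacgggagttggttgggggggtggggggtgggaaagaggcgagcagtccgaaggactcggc
Sdc4 (chr2:164443189-164443308, minus strand): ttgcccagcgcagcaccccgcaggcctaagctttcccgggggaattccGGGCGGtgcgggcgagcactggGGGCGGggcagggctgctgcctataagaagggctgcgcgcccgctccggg
Fmod (chr1:134037134-134037253, plus strand): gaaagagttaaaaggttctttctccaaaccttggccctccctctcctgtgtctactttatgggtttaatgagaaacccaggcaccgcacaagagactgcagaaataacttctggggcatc

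GGGCGG was searched on both strands in the 250 bases before the start. It was found in 5 of the 7 promoters, in Hspg2 at 5 places, Sdc4 at 4, Bgn and Sdc1 at 3 each and Vcan at 2, while 32.7% of all 32851 promoters of the table held it. The last pair of matches in Bgn share bases. Fmod and Ogn held none. TATAAA was found in Ogn alone, at 2 overlapping places 227 and 229 bases before the start, and in 12.4% of all promoters. GGAATG, a TEAD motif, was found once, in Ogn 86 bases before the start, and in 12.6% of all promoters. TGANTCA, an AP-1 motif, was found in 0 of the 7 and in 6.75% of all promoters. These are matches of letters and not tests of binding.

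The 9 core proteins differed widely in level. Levels were compared between genes as CPM per kilobase of the canonical transcript, and over all 27 mice the syndecans led. Sdc4 had a median of 125 CPM per kilobase (range 74.1 to 190) and Sdc1 of 94.5 (62.4 to 155), and their ranges overlapped, with Sdc4 the higher in 19 of 27 mice. Bgn (median 30.5, range 15.5 to 53.2) and Dcn (24.1, 17.3 to 49.0) followed, lay below both syndecans in every mouse, and also overlapped, with Bgn the higher in 19 mice. Lum (5.96, 3.06 to 23.7) was below Dcn in all 27 mice, and Hspg2 (1.70, 0.842 to 2.78) was below the lowest value of Lum. Fmod (0.50, 0.171 to 0.994), Ogn (0.189, 0.0393 to 0.347) and Vcan (0.0141, 0 to 0.283) closed the order. The ranges of Hspg2 and Fmod, Fmod and Ogn, and Ogn and Vcan overlapped, with the former the higher in 27, 25 and 24 mice. In mice without CCl4 the median level of Dcn per kilobase, 26.0, was near that of Bgn, 27.8, whereas with CCl4 Bgn was at 40.7 and Dcn at 21.1. The order of these 2 genes depends on the transcript lengths used, 6104 bases for Dcn and 2421 for Bgn. In CPM, Dcn was above Bgn in every mouse.

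**Figure D1:**
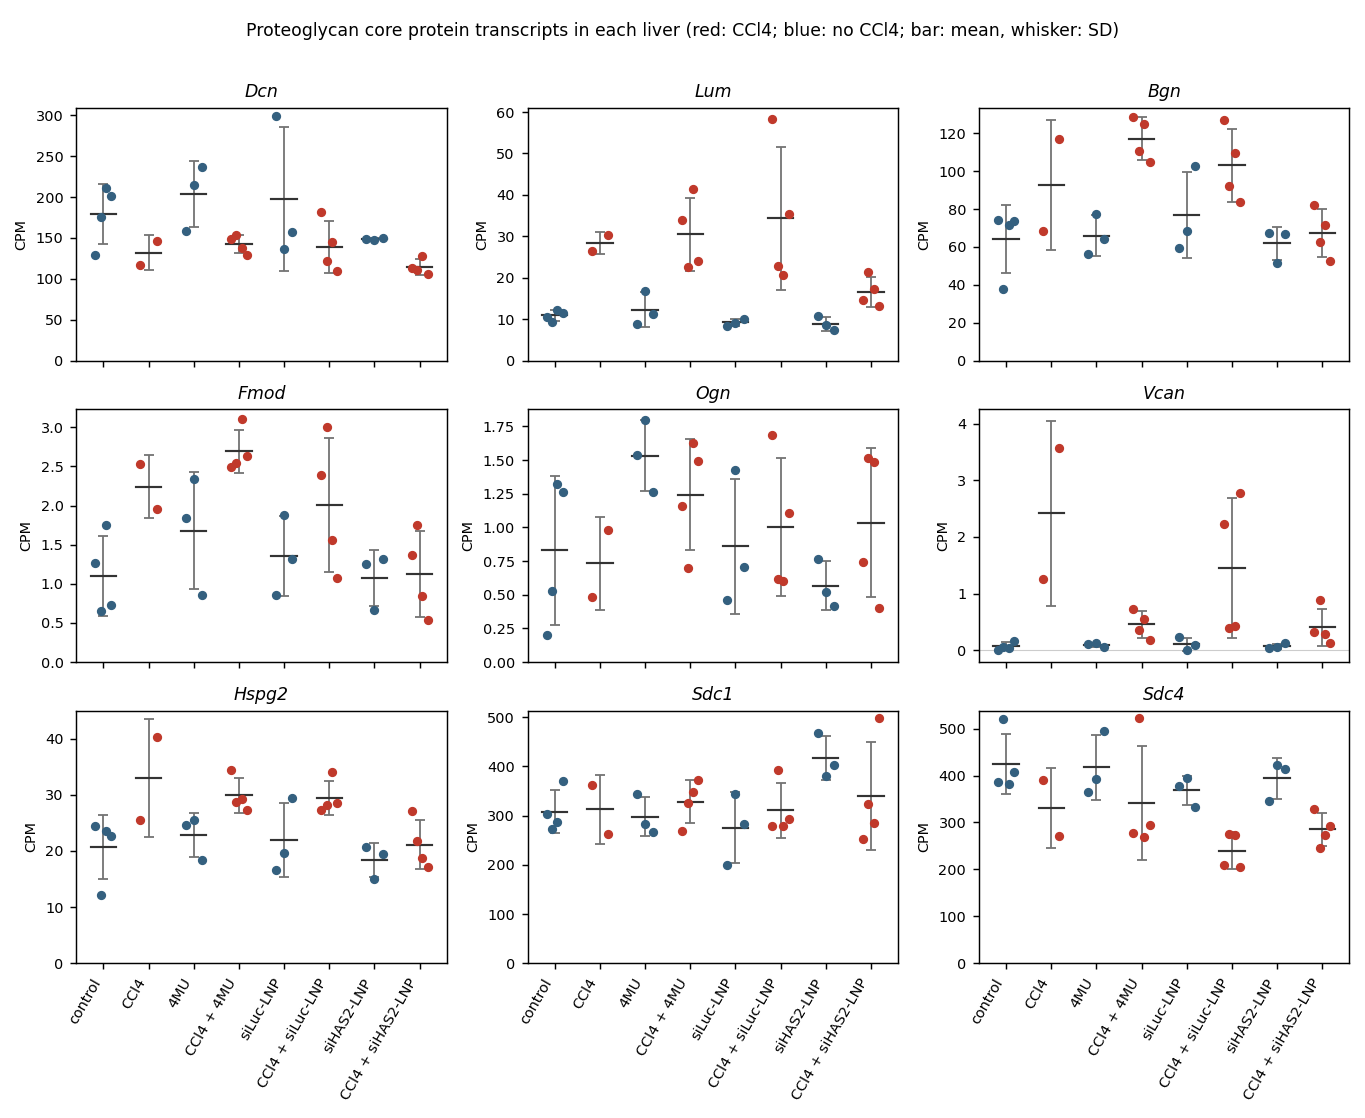
Level of each core protein transcript in CPM (vertical axis, starting at 0 except for Vcan, whose axis starts just below 0) in each of the 27 livers (points) by group, with the group mean (bar) and SD (whisker). Red points are mice given CCl4 and blue points mice that were not. Lum and Vcan sit higher in the CCl4 groups, Dcn and Sdc4 lower, and the range of Sdc1 with CCl4, 253 to 498 CPM, overlaps that without, 200.1 to 468 CPM.

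To ask what CCl4 did to these transcripts, each CCl4 group was set against the group that shared its other treatment, which makes 4 arms, and the mean of the 4 differences was tested. In the first arm control mice had PBS injected into the tail vein, and the labels name no such injection for CCl4 mice. From the labels, this injection cannot be told apart from CCl4 there. Lum, Vcan, Bgn, Fmod and Hspg2 rose, Dcn and Sdc4 fell, and Ogn and Sdc1 did not pass the test. These 7 calls among 9 (5 higher, 2 lower) stand beside 51.9% of all 14114 tested genes called in this comparison, 26.3% higher and 25.6% lower. The median log2 fold change among them was 0.42 over the 9 and -0.015 over all tested genes. Between all 14 CCl4 mice and the 13 others the ranges of all 9 overlapped, whereas 3.21% of all tested genes were higher and 1.37% lower with no overlap. All 7 calls were kept under each of the 32 alternatives, which included leaving out each mouse in turn. Vcan among these met the count minimum only through mice given CCl4. In bulk liver RNA, fewer cells of a type and less RNA per cell cannot be told apart, so a level here is that of the whole homogenate.

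Lumican gave the steadiest rise. Lum was at 10.7, 9.26, 12.4 and 11.6 CPM in control mice 1 to 4 and at 26.5 and 30.3 CPM in the CCl4 mice. In siLuc-LNP mice it was at 8.46, 9.22 and 10.1 CPM, and in CCl4 + siLuc-LNP mice at 58.4, 23.0, 20.7 and 35.3 CPM. In neither arm did the groups overlap, as for 25.7% of all tested genes in the first and 13.7% in the second on the higher side. With 4MU, Lum went from 8.85, 16.9 and 11.2 CPM to 33.9, 22.7, 41.3 and 24.1 CPM under CCl4, and with siHAS2-LNP from 10.8, 8.57 and 7.53 CPM to 14.7, 21.5, 17.2 and 13.2 CPM. The lowest 2 of the 14 CCl4 mice, both of CCl4 + siHAS2-LNP, lay within the range of the 13 others, whose highest value was 16.9 CPM, and the remaining 12 lay above it. CCl4 thus raised Lum 2.58-fold in the mean of the arms, a log2 fold change of 1.37 with a standard error of 0.147 (adjusted p = 3.44e-08).

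Decorin, the neighbour of lumican in the genome and likewise a collagen-binding member, went the other way. Dcn ranged from 129 to 299 CPM in the 13 mice without CCl4, with a median of 159 CPM, and from 106 to 182 CPM in the 14 mice with it, with a median of 129 CPM. The groups overlapped. Control mice were at 129, 175, 211 and 201 CPM and CCl4 mice at 117 and 147 CPM, and siLuc-LNP mice at 299, 137 and 157 CPM against 182, 122, 145 and 109.6 CPM in CCl4 + siLuc-LNP mice. The highest value of all belonged to siLuc-LNP mouse 1. With 4MU, Dcn was at 159, 215 and 237 CPM without CCl4 and at 149, 154, 138 and 129 CPM with it, and with siHAS2-LNP at 149, 147 and 149 CPM against 113, 111, 129 and 106 CPM. Within these 2 arms no CCl4 mouse reached the level of a mouse without CCl4, as for 17.7% and 12.5% of all tested genes. The mean CCl4 effect was -0.46 (standard error 0.113, adjusted p = 0.00153), a fold of 0.728.

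The ratio of Lum to Dcn within a liver did not overlap between mice with and without CCl4, whereas each gene did. This ratio, of a member that rose to a member that fell, was chosen after the values were seen and has no test. How many other pairs of genes separate the mice this way was not counted. Per kilobase it was 0.310 to 0.799 in the 14 CCl4 mice, with a median of 0.475, and 0.0702 to 0.205 in the 13 others, with a median of 0.144, so that all 14 lay above all 13. By group, its median was 0.538 in CCl4, 0.514 in CCl4 + 4MU, 0.633 in CCl4 + siLuc-LNP and 0.327 in CCl4 + siHAS2-LNP mice, against 0.139 to 0.160 in the 4 groups without CCl4. The ratio of Bgn to Dcn, also per kilobase, was 1.25 to 2.27 with CCl4 and 0.50 to 1.65 without, and 10 of the 14 CCl4 mice lay above all others. The transcript lengths used set the size of both ratios, but not which mice were higher.

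**Figure D2:**
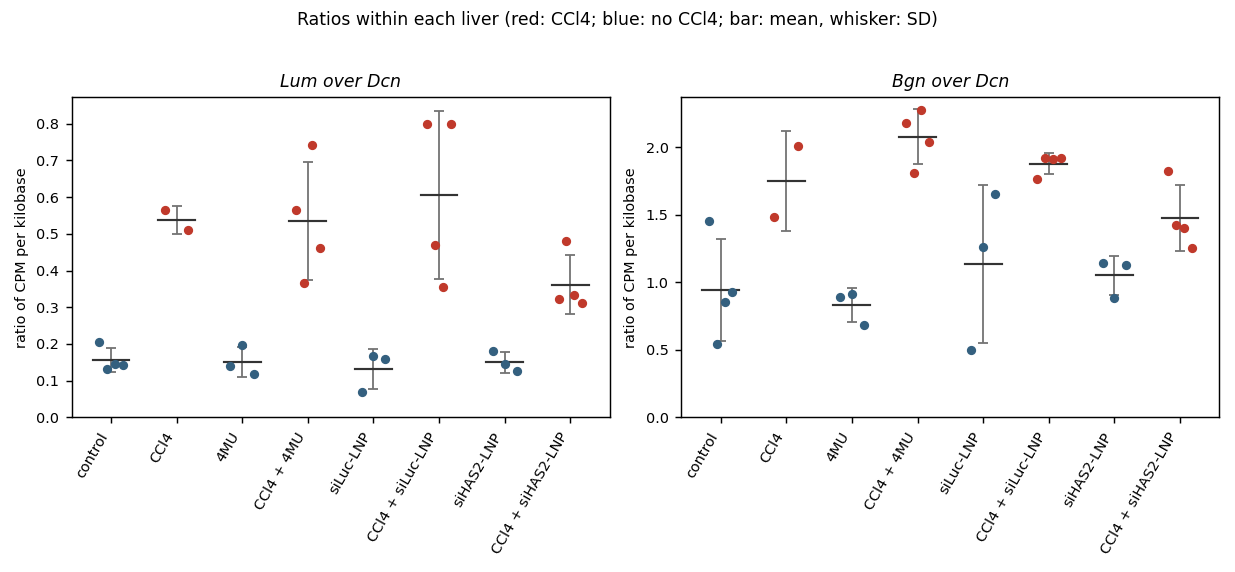
Ratio of Lum to Dcn (left) and of Bgn to Dcn (right), each from CPM per kilobase, in every liver by group, with the group mean (bar) and SD (whisker); red points are CCl4 mice. The Lum to Dcn ratio of all 14 CCl4 mice, 0.310 or more, lies above the 0.205 that the highest other mouse reached, while the Bgn to Dcn ratios overlap.

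Biglycan, the closest relative of decorin among the members, rose. In control mice Bgn was at 74.4, 37.6, 71.4 and 73.8 CPM and in CCl4 mice at 68.6 and 117 CPM, so these groups overlapped. In the 4MU arm it went from 56.1, 77.5 and 64.4 CPM to 129, 111, 125 and 104.6 CPM, higher with no overlap, as were 18.3% of all tested genes. With siLuc-LNP it was at 59.3, 68.5 and 103 CPM without CCl4 and at 127, 92.4, 109.6 and 83.5 CPM with it. The CCl4 + siHAS2-LNP mice, at 82.0, 62.8, 71.6 and 52.4 CPM, overlapped the siHAS2-LNP mice, at 67.4, 51.7 and 66.7 CPM. The mean CCl4 effect on Bgn was 0.48 (standard error 0.119, adjusted p = 0.00181), or 1.39-fold.

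Fibromodulin and osteoglycin, also collagen-fibril proteins, were low. Fmod was at 0.534 to 3.10 CPM in CCl4 mice (median 2.17) and at 0.649 to 2.34 CPM in the others (median 1.27). It went from 1.27, 0.649, 1.75 and 0.735 CPM in control to 2.53 and 1.96 CPM in CCl4 mice, and was at 1.84, 2.34 and 0.860 CPM in 4MU mice. With siLuc-LNP it was at 0.857, 1.88 and 1.32 CPM without CCl4 and 2.39, 3.01, 1.56 and 1.07 CPM with it, and with siHAS2-LNP at 1.25, 0.660 and 1.31 CPM against 1.37, 1.76, 0.842 and 0.534 CPM. Control and CCl4 mice did not overlap, as for 25.7% of all tested genes on the higher side, and the mice of both siRNA arms did. Its mean CCl4 effect was 0.60 (standard error 0.212, adjusted p = 0.0212), or 1.51-fold, and the 4 CCl4 + 4MU mice, at 2.49, 2.54, 3.10 and 2.63 CPM, lay above every mouse without CCl4. Within the 4MU arm, 18.3% of all tested genes were higher with no overlap. Ogn was at 0.40 to 1.68 CPM with CCl4 and 0.203 to 1.79 CPM without. Control mice were at 0.203, 0.531, 1.32 and 1.27 CPM and CCl4 mice at 0.486 and 0.979 CPM, 4MU mice at 1.54, 1.79 and 1.26 CPM and CCl4 + 4MU mice at 1.16, 0.697, 1.62 and 1.49 CPM. With siLuc-LNP the values were 0.457, 1.42 and 0.702 CPM and with CCl4 added 1.68, 0.617, 0.60 and 1.11 CPM, and with siHAS2-LNP 0.767, 0.518 and 0.418 CPM against 0.743, 1.51, 1.48 and 0.40 CPM. In all 4 arms the groups overlapped, and the difference of 0.17 (95% interval -0.38 to 0.72, adjusted p = 0.622) did not pass the test.

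Versican had the largest fold change of the 9 and the lowest counts. In reads, control mice had 0, 1, 1 and 4 counts, 4MU mice 2, 3 and 1, siLuc-LNP mice 4, 0 and 2, and siHAS2-LNP mice 1, 1 and 2. With CCl4 alone the counts were 26 and 95, and with CCl4 + siLuc-LNP 57, 10, 7 and 80. The CCl4 + 4MU mice had 17, 7, 15 and 5 counts and the CCl4 + siHAS2-LNP mice 8, 18, 7 and 1, the last from the shallowest library. Vcan was thus near the limit of 3 counts in the livers without CCl4, and 12 of the 14 CCl4 mice lay above all of them in CPM. The mean CCl4 effect was 3.405 (standard error 0.454, adjusted p = 9.82e-07), a fitted 10.6-fold that depends on the few reads of the groups without CCl4. From summed counts and totals, the ratio of CCl4 to control was 36.2 (95% interval 16.1 to 101), of CCl4 + siLuc-LNP to siLuc-LNP 15.3 (6.87 to 42.3), of CCl4 + siHAS2-LNP to siHAS2-LNP 6.79 (2.42 to 26.4) and of CCl4 + 4MU to 4MU 4.83 (2.05 to 13.9), where the intervals cover counting error only.

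Perlecan, a heparan sulfate proteoglycan of basement membranes, rose by less. Hspg2 was at 24.4, 12.2, 23.5 and 22.7 CPM in control and 25.5 and 40.3 CPM in CCl4 mice, higher with no overlap, as were 25.7% of all tested genes. In CCl4 + 4MU mice it was at 34.4, 28.7, 29.2 and 27.2 CPM, above the 18.3 to 25.5 CPM of 4MU mice. A share of 18.3% of all tested genes was likewise higher with no overlap there. In CCl4 + siLuc-LNP mice it was at 27.2, 28.1, 34.0 and 28.5 CPM, and in CCl4 + siHAS2-LNP mice at 27.1, 21.7, 18.7 and 17.1 CPM. These last 2 groups each overlapped the group without CCl4, at 16.7 to 29.4 CPM for siLuc-LNP and 15.0 to 20.7 CPM for siHAS2-LNP. The mean CCl4 effect was 0.42 (standard error 0.114, adjusted p = 0.00341), or 1.34-fold.

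Of the syndecans, cell-surface members that carry heparan sulfate, Sdc4 fell and Sdc1 did not pass the test. Sdc4 was at 204 to 522 CPM in CCl4 mice (median 274) and at 333 to 519.9 CPM in the others (median 391.9). In siLuc-LNP mice it was at 377, 394 and 333 CPM and in CCl4 + siLuc-LNP mice at 208, 275, 274 and 204 CPM, lower with no overlap, as were 12.4% of all tested genes. Control mice were at 387, 519.9, 383 and 408 CPM against 391 and 271 CPM in CCl4 mice, and siHAS2-LNP mice at 345, 423 and 413 CPM against 329, 247, 273 and 294 CPM, the latter lower with no overlap, as were 12.5% of all tested genes. With 4MU it was at 365, 391.9 and 495 CPM without CCl4 and 277, 522, 269.6 and 295 CPM with it, and the 522 CPM of CCl4 + 4MU mouse 2 was the highest of all 27. The mean CCl4 effect on Sdc4 was -0.43 (standard error 0.106, adjusted p = 0.00148), a fold of 0.741. Sdc1 was at 253 to 498 CPM with CCl4 and 200.1 to 468 CPM without, with medians of 308 and 303 CPM. It was at 303, 273, 286 and 371 CPM in control and 362 and 263 CPM in CCl4 mice, and at 344, 283 and 267 CPM in 4MU and 269, 325, 347 and 372 CPM in CCl4 + 4MU mice. CCl4 + siLuc-LNP mice, at 278, 393, 278 and 293 CPM, and CCl4 + siHAS2-LNP mice, at 253, 323, 285 and 498 CPM, likewise overlapped their groups without CCl4. The mean difference of Sdc1, 0.0087, had a 95% interval of -0.22 to 0.23 (adjusted p = 0.955). Of the summed per-kilobase level of the 9 genes, Sdc4 made up a median of 36.2% with CCl4 and 46.4% without, and Lum 3.34% and 1.33%.

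Seen arm by arm, lumican was the member that passed the test in each of the 4 arms. In CCl4 against control, 3 of 9 were called, against 34.1% of all tested genes. Lum differed by 1.37 (standard error 0.305, adjusted p = 0.00130), Vcan by 5.01 (standard error 0.845, adjusted p = 7.11e-05) and Hspg2 by 0.67 (standard error 0.243, adjusted p = 0.0361). The call of Hspg2 was lost without control mouse 2, where the difference was 0.49, and without CCl4 mouse 2, where it was 0.32. The difference of Vcan was 4.09 without CCl4 mouse 2 and 5.97 without control mouse 4, and stayed called. Lum, Fmod, Vcan and Hspg2 were higher with no overlap, as were 25.7% of all tested genes.

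In CCl4 + 4MU against 4MU, 2 of 9 were called, against 23.7% of all tested genes. These were Lum at 1.30 (standard error 0.288, adjusted p = 0.00181) and Bgn at 0.83 (standard error 0.234, adjusted p = 0.0124), and the call of Bgn was lost without 4MU mouse 1 (0.73, adjusted p = 0.0571). Vcan differed by 2.23 (adjusted p = 0.0784) and was called without the low-count filter (2.25, adjusted p = 0.0230). Lum, Bgn, Fmod, Vcan and Hspg2 were higher with no overlap, as were 18.3% of all genes, and Dcn was lower with no overlap, as were 17.7%. Without CCl4 + 4MU mouse 4, Lum and Bgn were again called, at 1.40 and 0.88.

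In CCl4 + siLuc-LNP against siLuc-LNP, 3 of 9 were called, against 24.2%. Lum differed by 1.89 (standard error 0.297, adjusted p = 4.85e-05), Vcan by 3.76 (standard error 0.855, adjusted p = 0.00231) and Sdc4 by -0.62 (standard error 0.203, adjusted p = 0.0285). The difference of Vcan was 4.77 without siLuc-LNP mouse 1, with a range of 3.24 to 4.77 over the mice left out. The call of Sdc4 was lost when siLuc-LNP mouse 1 or 2 or CCl4 + siLuc-LNP mouse 1 or 4 was left out, with adjusted p-values of up to 0.0900. In CCl4 + siHAS2-LNP against siHAS2-LNP, 1 of 9 was called, against 12.8%. This was Lum at 0.90 (standard error 0.290, adjusted p = 0.0423), and the call was lost in 6 of 11 alternatives, over which the difference ran from 0.75 to 1.06 and the adjusted p from 0.00231 to 0.160. Those 6 were the replicate block and leaving out siHAS2-LNP mouse 1, 2 or 3 or CCl4 + siHAS2-LNP mouse 2 or 3. Vcan differed by 2.63 (adjusted p = 0.0872) and Bgn by 0.12 (adjusted p = 0.785) in that arm.

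**Figure D3:**
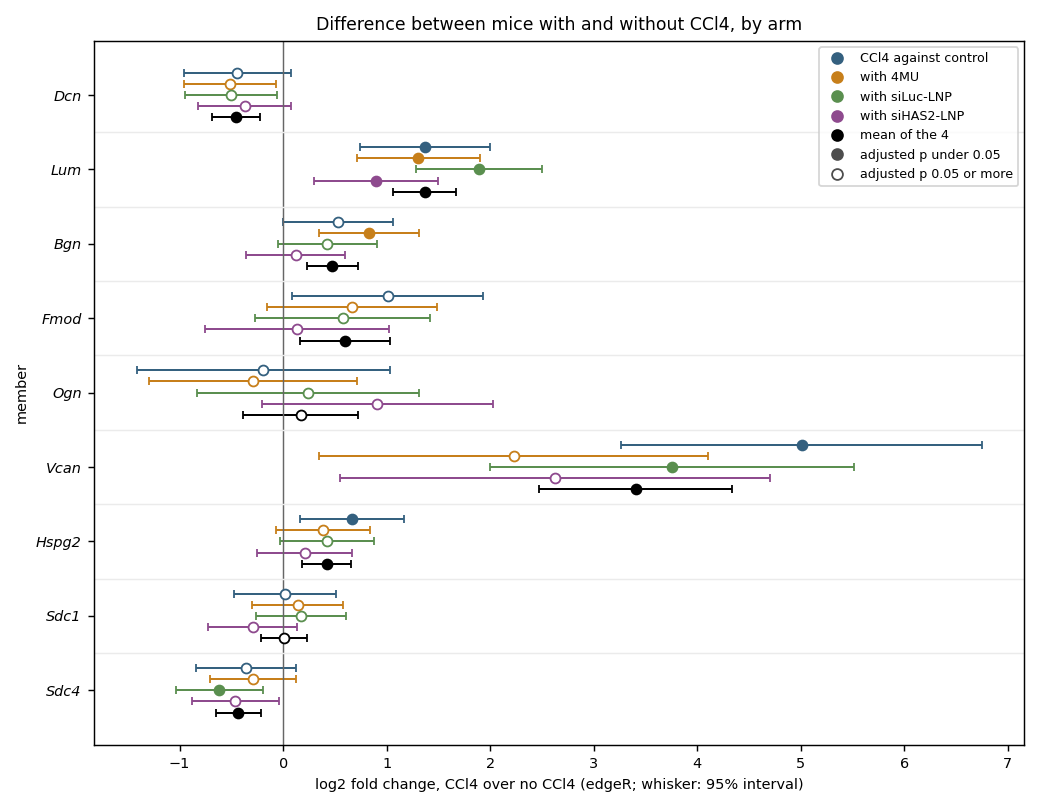
Log2 fold change of each core protein with CCl4 over without it (horizontal axis), in each of the 4 arms and as their mean (black), from edgeR, with 95% intervals as whiskers. Filled points have an adjusted p under 0.05. Lum lies to the right of 0 in every arm, from 0.90 to 1.89, Vcan lies farthest right with the widest intervals, and the means of Dcn and Sdc4 lie to the left of 0.

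Whether the treatments changed the core proteins of fibrotic livers was asked within the CCl4 groups. All 3 comparisons with the CCl4 group share its 2 mice. The labels name neither gavage nor tail vein injection for these mice. The authors describe vehicle gavage of control mice, without saying whether CCl4 mice had it. From the labels alone, the route of giving cannot be told apart from 4MU or the nanoparticles in these comparisons. Versican was the single member called in CCl4 + 4MU against CCl4, 1 of 9 against 18.3% of all tested genes, at -2.42 (standard error 0.677, adjusted p = 0.0160). It was at 0.731, 0.349, 0.554 and 0.178 CPM against 1.26 and 3.58 CPM, lower with no overlap, as were 21.5% of all tested genes. CCl4 mouse 2 had the highest summed mesothelial (48.03 CPM) and adipocyte markers (6.32 CPM) and the lowest hepatocyte markers (70277 CPM, the next at 100533 CPM) of all 27 mice, whose part in Vcan was not tested. Without CCl4 mouse 2 the difference was -1.51 (adjusted p = 0.357), and without CCl4 + 4MU mouse 4 it was -2.14 (adjusted p = 0.0494). The other 8 differed by -0.14 to 0.75, and for Lum, at 0.10, the 95% interval was -0.54 to 0.75.

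In CCl4 + siHAS2-LNP mice, too, versican was the member called against CCl4. Beside 14.4% of all tested genes, 1 of 9 was called, and Vcan differed by -2.49 (standard error 0.699, adjusted p = 0.0196). The 4 mice were at 0.313, 0.878, 0.281 and 0.133 CPM. Without CCl4 mouse 2 the difference was -1.58 (adjusted p = 0.391) and without CCl4 + siHAS2-LNP mouse 3 it was -2.32 (adjusted p = 0.0603). Lum, at -0.76 (adjusted p = 0.0960), Fmod, at -0.92 (adjusted p = 0.171), and Vcan were lower with no overlap, as were 18.8% of all genes. For Fmod the CCl4 + siHAS2-LNP mice had 35, 36, 21 and 4 counts, the last from the shallowest library. Hspg2 differed by -0.63 (adjusted p = 0.0804) and Bgn by -0.46 (adjusted p = 0.230), both with overlap, and Dcn by -0.20 (adjusted p = 0.620) and Ogn by 0.55 (adjusted p = 0.569), also with overlap.

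Against the non-targeting control, CCl4 + siLuc-LNP, 1 of 9 was called, beside 1.09% of all tested genes. Lum differed by -1.04 (standard error 0.260, adjusted p = 0.0483), and the groups overlapped at 13.2 to 21.5 CPM against 20.7 to 58.4 CPM. The call was lost in 7 of 12 alternatives, with an adjusted p of 6.88e-05 to 0.224, the highest without CCl4 + siLuc-LNP mouse 1, where the difference was -0.66. Bgn (-0.62, adjusted p = 0.140) and Hspg2 (-0.47, adjusted p = 0.246) were lower with no overlap, as were 3.52% of all genes. For Bgn the 4 siHAS2-LNP mice reached at most 82.0 CPM and the 4 siLuc-LNP mice at least 83.5 CPM. Vcan differed by -1.78 (adjusted p = 0.146), Fmod by -0.77 (adjusted p = 0.316), Sdc1 by 0.13 and Sdc4 by 0.25. CCl4 + siLuc-LNP mouse 1 also had the highest summed level of activated myofibroblast markers, 1034 CPM, whose part in the Lum result was not tested. In CCl4 + siLuc-LNP against CCl4, 0 of 9 were called by edgeR or by DESeq2, 0 had an unadjusted p under 0.05, and 0.248% of all tested genes were called.

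**Figure D4:**
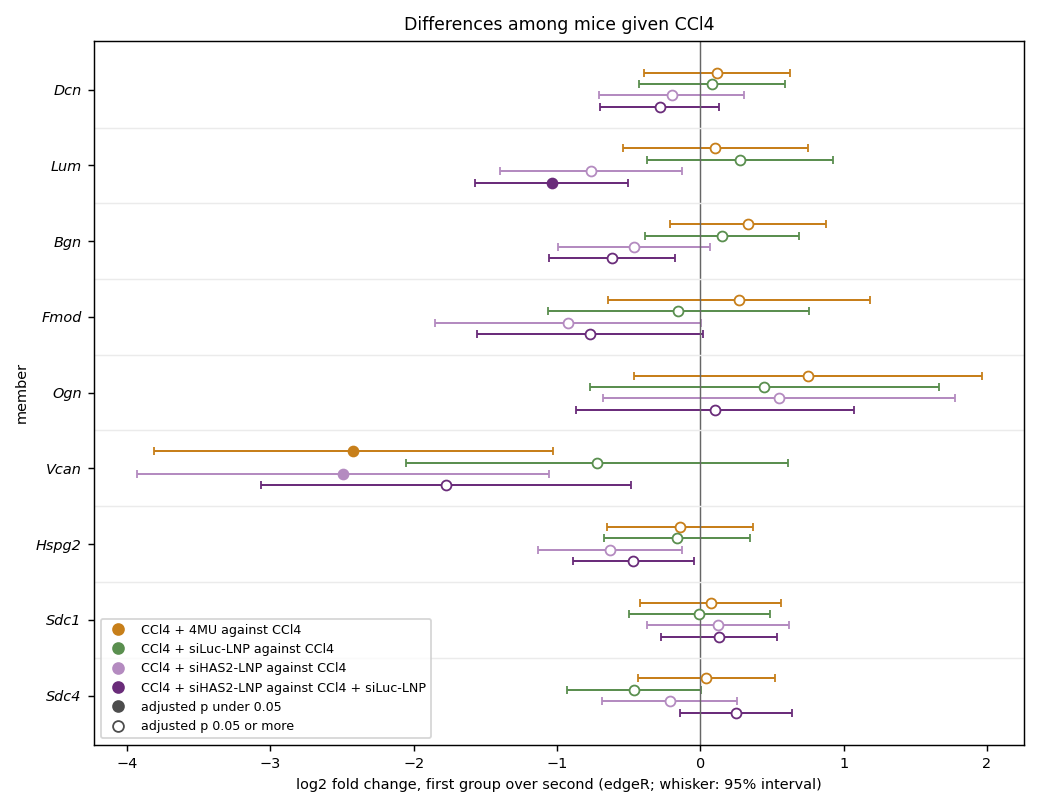
Log2 fold change of each core protein between groups of CCl4 mice (horizontal axis, first group over second), from edgeR, with 95% intervals as whiskers and filled points where the adjusted p was under 0.05. Vcan lies left of 0 with CCl4 + 4MU (-2.42) and CCl4 + siHAS2-LNP (-2.49) against CCl4, and Lum at -1.04 in CCl4 + siHAS2-LNP against CCl4 + siLuc-LNP.

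Without CCl4 the treatments moved none of the 9 past the test. By the labels, control mice had PBS into the tail vein and 4MU mice gavage. The authors also describe gavage of control mice with the carboxymethyl cellulose vehicle, without naming the groups. From the labels alone, these procedures cannot be told apart from 4MU there. In 4MU against control and in siLuc-LNP against control, 0 of 9 were called and 0 had an unadjusted p under 0.05, beside 0.00709% and 0.213% of all tested genes called by edgeR. In siHAS2-LNP against siLuc-LNP, 0 of 9 were called, beside 0.0425%, and Sdc1 had an unadjusted p of 0.0142. Sdc1 was at 468, 381 and 403 CPM against 200.1, 344 and 283 CPM, a difference of 0.60 (adjusted p = 0.402) with no overlap, as in 8.21% of all genes. DESeq2 called 0 of the 9 in these 3 comparisons.

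The difference between arms was also tested directly, as an interaction, in which 4MU and siLuc-LNP were set against the arm with neither and siHAS2-LNP against the siLuc-LNP arm. In the arm with neither, the labels name a tail vein injection for control mice only, which enters the 4MU and siLuc-LNP interactions. For 4MU, siLuc-LNP and siHAS2-LNP, 0 of 9 members were called by edgeR or by DESeq2, beside 5.67%, 0.00709% and 0.0354% of all tested genes called by edgeR. The interaction of siHAS2-LNP with CCl4 was -0.996 for Lum (unadjusted p = 0.0206, adjusted p = 0.339), the single member with an unadjusted p under 0.05. The interaction of 4MU with CCl4 was -2.78 for Vcan (95% interval -5.78 to 0.21, adjusted p = 0.228).

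How the members varied among mice of a group was described by the deviation of log2 CPM from the group mean over all 27 mice, with no p since the points share libraries and depth. Bgn and Hspg2 deviated most alike of any pair, with a Pearson r of 0.85. Lum went with Ogn and with Vcan (0.61 each) and against Sdc4 (-0.60), and Dcn went against Sdc1 (-0.56). Dcn and Lum, the neighbours on chromosome 10, had an r of 0.24. Vcan spread most within groups, with a median SD of 0.790 on the log2 scale, and Sdc1 and Sdc4 least, with 0.220 and 0.219. Vcan had at most 4 counts in mice without CCl4 and the syndecans at least 2201 in every mouse, so counting noise is part of this ranking.

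The 3 tested protein-coding genes most like each member in these deviations were also found. Each r is among the highest of very many, and how high such values run by chance was not tested. Lum was closest to Itga8, Col5a2 and Ddr2 (r of 0.86 each), which encode an integrin subunit, a fibrillar collagen chain and a collagen receptor. Bgn was closest to Col4a2 (0.85), a basement membrane collagen chain, P2ry6 (0.84) and Prelp (0.82), itself a small leucine-rich proteoglycan. Hspg2 was closest to Man1c1 (0.86), Prelp (0.83) and Ada (0.82). For Dcn the closest were Ldb2 (0.88), Micu3 (0.86) and Maf (0.83), and for Vcan Cd200r1 (0.89), Tead1 (0.85) and Tmem65 (0.83). Sdc1 was closest to Aco1 and Adipor2 (0.85 each), an iron-sulfur enzyme and an adiponectin receptor, and Ankrd33b (0.81), and Sdc4 to Cyp3a13 (0.80), a cytochrome P450, Ip6k2 (0.77) and Phyh (0.76). Fmod and Ogn, both low in counts, had the lowest r for the closest gene. Fmod was closest to Cd7 (0.76), D630003M21Rik (0.71) and Aars2 (0.70) and Ogn to Zbtb2 (0.72), Itm2a (0.71) and Bcl6b (0.70). Vcan, with the fewest counts, did not share this, at 0.89 for its closest gene.

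The genes that build, sulfate and cut proteoglycans were then counted, in lists chosen by function. All values in this paragraph and the next are the mean CCl4 effect, for which 26.3% of all genes were called higher and 25.6% lower. Of 12 other leucine-rich proteoglycans and relatives, 5 were tested, of which 2 rose and 1 fell, with a median of -0.0044. Podn rose by 1.18 (standard error 0.244) and Tsku by 0.86, Podnl1 fell by 1.21, and Prelp, at -0.17, and Chad, at -0.0044, did not pass. The 7 untested ones, Kera, Epyc, Omd, Aspn, Ecm2, Optc and Nyx, had at most 18 counts in any library. Of 23 other core proteins, 13 were tested, 4 rose and 3 fell, with a median of 0.17. Gpc3, a glypican anchored to the cell membrane, rose by 3.92 (standard error 0.187), from 0.413 to 2.3 CPM without CCl4 to 9.75 to 34.7 CPM with it. The 14 CCl4 mice and 13 others did not overlap, as for 3.21% of all tested genes on the higher side. Gpc1 rose by 1.52, while Sdc2 fell by 0.34 and Col18a1, a heparan sulfate-bearing collagen, by 0.35.

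Of 6 genes of the linker that joins chains to cores, 1 rose and 2 fell. Xylt1, which adds the first sugar, rose by 2.80 (standard error 0.389) from at most 0.299 CPM, whereas B3gat3 fell by 0.35 and Xylt2 by 0.22. Of 16 chondroitin and dermatan sulfate genes, 14 were tested, and 7 rose and 0 fell, with a median of 0.26. Among them were the sulfotransferases Chst14, which acts on dermatan sulfate and rose by 1.49 from 0.629 to 2.34 CPM to 3.07 to 6.06 CPM, and Chst11, which rose by 1.60. Of 22 heparan sulfate genes, 15 were tested, 3 rose and 3 fell, with a median of 0.0085. Sulf2, which removes sulfate from heparan sulfate, rose by 0.70 and the sulfotransferase gene Hs2st1 by 0.49, and Extl1 fell by 1.02 and Hs3st3a1 by 0.72. Of 5 keratan sulfate genes 2 were tested and both rose, Chst2 by 1.18 and B4galt4 by 0.57. Of 9 genes for enzymes that cut proteoglycans, 6 were tested and 6 rose, among them Adamts9 by 1.79 and Adamts15 by 1.40, with a median of 0.95.

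**Figure D5:**
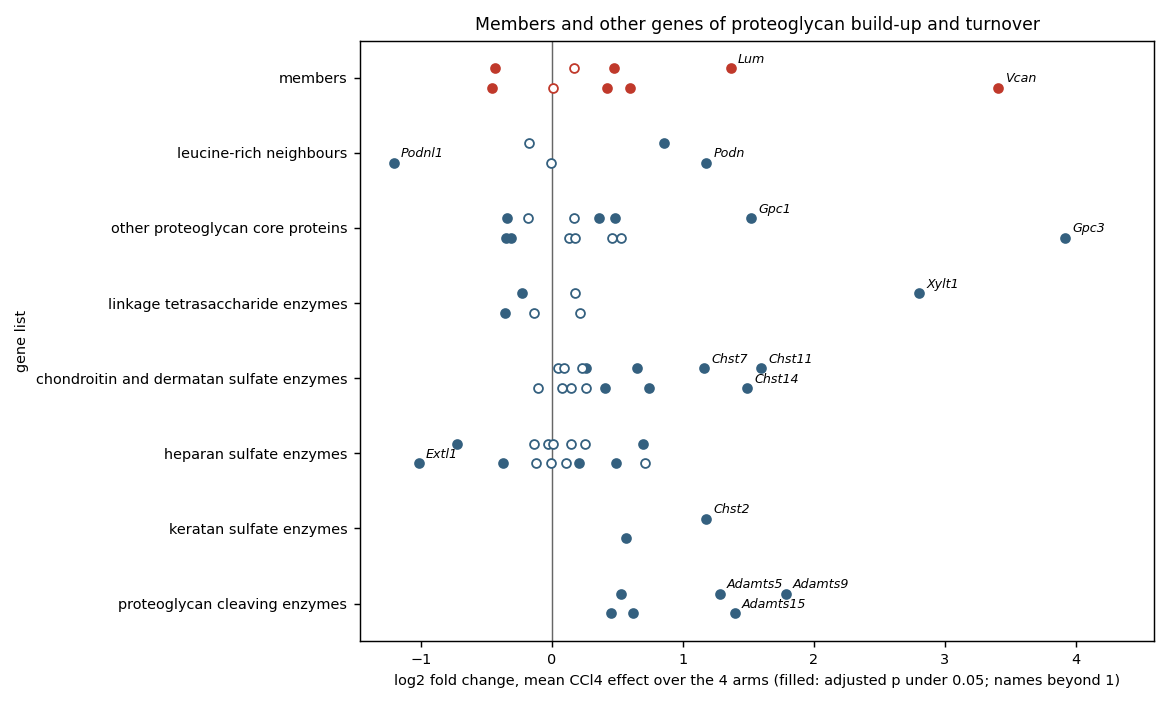
Mean CCl4 effect as log2 fold change (horizontal axis) of every tested gene of 8 lists (rows), the 9 core proteins in red and other genes in blue, filled where the adjusted p was under 0.05. Points are spread up and down within a list only to separate them. All 6 tested cleaving enzymes lie right of 0, while the heparan sulfate list, with a median of 0.0085, lies on both sides.

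Markers of cell types were read in the mean CCl4 effect too, beside 26.3% of all tested genes called higher and 25.6% lower. Which markers met the count minimum only through mice given CCl4 was not counted. Of 8 activated myofibroblast markers, 7 were tested and 7 rose, among them Col1a1 by 4.06, Acta2 by 2.67 and Col3a1 by 2.53, and Tagln was at 18 counts or fewer. Their summed level was 26.1 to 125 CPM without CCl4 and 160 to 1034 CPM with it. By group it was 534 to 934 CPM in CCl4, 160 to 559.6 CPM in CCl4 + 4MU, 299.9 to 1034 CPM in CCl4 + siLuc-LNP and 199.5 to 353 CPM in CCl4 + siHAS2-LNP mice. Stellate cell markers rose for 4 (Reln, Des, Pdgfrb and Hgf) and fell for 2 (Ngfr and Colec11) of 9, with sums of 111 to 222 CPM without and 128 to 324 CPM with CCl4. Portal fibroblast markers rose for 6 of the 7 tested, with sums of 7.68 to 16.4 CPM against 15.7 to 41.8 CPM. Of the tested markers, mesothelial ones rose for 6 of 6, smooth muscle ones for 4 of 4 and cholangiocyte ones for 5 of 5. Not all listed smooth muscle and cholangiocyte markers were tested, and Des is in both the stellate cell and the smooth muscle list.

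Of the other lists in the mean effect, beside the same 26.3% and 25.6%, 4 of 7 macrophage markers rose and 2 fell, 2 of 6 endothelial markers rose and 1 fell, and 1 of 5 blood cell markers rose and 3 fell. Hepatocyte markers fell for 3 of 6, Cyp2e1 by 2.83, Ttr by 0.39 and Alb by 0.31. Squamous and gut epithelium markers (2 tested) and adipocyte markers (1 tested) had 0 calls, and skeletal muscle markers were at 2 counts or fewer. In CCl4 + siHAS2-LNP against CCl4, where 14.4% of all tested genes were called, 5 of 7 activated myofibroblast, 4 of 6 mesothelial, 3 of 7 macrophage, 2 of 4 smooth muscle and 2 of 6 endothelial markers were lower and 1 of 6 hepatocyte markers higher. The summed macrophage markers were at 142 to 218 CPM in CCl4 + siHAS2-LNP and 314 to 343 CPM in CCl4 mice, and the endothelial markers at 51.0 to 66.3 CPM against 82.0 to 90.2 CPM, without overlap. Against CCl4 + siLuc-LNP, 0 of 7 activated myofibroblast markers were called, Col1a1 standing at -1.32 (adjusted p = 0.135). The part of any of these cell markers in the levels of the 9 core proteins was not tested.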

How the data were processed

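The authors trimmed paired-end poly(A) reads with Trimmomatic 0.39, aligned them to GRCm39 with HISAT2 (version not given in the sources used here) and used featureCounts with the annotation of Ensembl (release 105), dropping multi-mapped pairs. The strand setting was not stated. The deposited values are raw counts, neither normalised nor filtered. Genes were named by GENCODE vM39, which matched 54749 of 55414 identifiers.

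The 14114 genes that averaged 10 or more counts were tested in 1 fit of all 27 libraries with edgeR 4.0.16 in R 4.3.3, by TMM scaling, the quasi-likelihood test and Benjamini-Hochberg adjustment over all tested genes at 0.05. CPM use TMM-scaled totals, and 3 counts correspond to 0.102 to 0.426 CPM. Standard errors and 95% intervals come from the same fit. Replicate pairs within groups differed beyond sampling noise in all 34 cases. Alternatives were DESeq2 1.42.0, its size factors, no low-count filter, the replicate number as a block, all 14 CCl4 mice against 13 others, and each mouse left out. The fit was tested on simulated data. Ratios, shares and figures used Python 3.11.15 with SciPy 1.17.1. The members, the gene lists and the rules for naming genes were chosen with earlier results of these data known. Named beyond the members were the 2 genes of each list with the largest changes in each direction past the threshold, each measured leucine-rich relative, the 3 genes closest to each member and some markers, of which those other than Has2, Acta2, Col1a1, Col3a1, Pdgfrb, Des and Alb were chosen after their values were seen. Levels per kilobase use the canonical transcript in place of summed exons.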

Additional observations from a re-analysis of the deposited data

Results flagged for a closer look

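Among the 36 sets of 4 mice (9 core proteins in 4 groups), 4 held 1 value far from the other 3, with a gap over the range above Dixon's critical value at 95%, and chance gives about 1 in 20. Control mouse 2 had the lowest Bgn, 37.6 CPM (gap over range 0.918), and also the lowest Hspg2, 12.2 CPM (0.858). CCl4 + siLuc-LNP mouse 2 had the highest Sdc1 of its group, 393 CPM (0.868). CCl4 + 4MU mouse 2 had the highest Sdc4, 522 CPM (0.899).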

How the results depend on the processing

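Over all alternatives, 1053 values of the 9 core proteins in the 9 comparisons with CCl4 mice were computed, of which 966 kept their direction and call, 23 lost a call, 14 gained one and 50 changed sign, 0 of the last from a called value. DESeq2 and its size factors changed none of 81 values each. Without the low-count filter 3 members were called in CCl4 + 4MU against 4MU, 2 in CCl4 + siHAS2-LNP against siHAS2-LNP, 3 against CCl4 and 3 against CCl4 + siLuc-LNP. The labels name nothing that mice with the same replicate number share. Their deviations had a median r of -0.017 over 83 pairs (-0.32 to 0.29, 17 above 0.1). Pairs with different numbers were not compared, so a shared batch was not tested. With the replicate numbers as a block, 0 members were called in CCl4 + siHAS2-LNP against siHAS2-LNP and 0 against CCl4 + siLuc-LNP, and 3 values turned, Sdc1 in the mean effect (-0.041) and in CCl4 + 4MU against CCl4 (-0.012) and Fmod in CCl4 + siLuc-LNP against CCl4 (0.0070). The cause was not tested.

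With each mouse left out in turn, the members called were 7 throughout for the mean effect, 2 to 4 for CCl4 against control, 1 to 3 for CCl4 + 4MU against 4MU, 2 to 4 for CCl4 + siLuc-LNP against siLuc-LNP, 0 to 1 for CCl4 + siHAS2-LNP against siHAS2-LNP, 0 to 1 for CCl4 + 4MU against CCl4, 0 to 2 for CCl4 + siHAS2-LNP against CCl4 and 0 to 1 against CCl4 + siLuc-LNP. Where 1 of the 2 CCl4 mice is left out, the lone mouse is assumed to vary like the other groups. Uncalled log2 fold changes that turned ran as follows. In CCl4 + 4MU against CCl4 they ran from -0.013 to 0.74 for Bgn, -0.056 to 0.26 for Dcn, -0.45 to 0.20 for Hspg2, -0.078 to 0.20 for Lum, -0.17 to 0.31 for Sdc1 and -0.27 to 0.32 for Sdc4. In CCl4 + siLuc-LNP against CCl4 they ran from -0.18 to 0.58 for Bgn, -0.074 to 0.25 for Dcn, -0.41 to 0.064 for Fmod, -0.45 to 0.20 for Hspg2, -0.11 to 0.46 for Lum, -0.23 to 0.24 for Sdc1 and -1.27 to 0.22 for Vcan. In CCl4 + siHAS2-LNP they ran against siHAS2-LNP from -0.13 to 0.30 for Fmod, against CCl4 + siLuc-LNP from -0.12 to 0.46 for Ogn and -0.12 to 0.25 for Sdc1, and against CCl4 from -0.12 to 0.36 for Sdc1 and -0.48 to 0.066 for Sdc4. Ogn and Sdc1 ran from -0.11 to 0.78 and -0.013 to 0.36 in CCl4 + siLuc-LNP against siLuc-LNP and from -0.78 to 0.22 and -0.21 to 0.25 in CCl4 against control. Sdc1 ran from -0.042 to 0.065 in the mean effect.

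Counts over all genes moved more with the tool, from 154 by edgeR to 412 by DESeq2 in CCl4 + siHAS2-LNP against CCl4 + siLuc-LNP and from 35 to 295 in CCl4 + siLuc-LNP against CCl4. Depth limits Vcan, Ogn and Fmod, with few reads in most mice. The shallowest library, of CCl4 + siHAS2-LNP mouse 4, had 3 Ogn and 4 Fmod counts.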
